A study of Mus musculus with 6 samples.

Results

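The receptors for parathyroid hormone (PTH), vasoactive intestinal peptide (VIP) and calcitonin gene-related peptide (CGRP), with the accessory proteins of the CGRP receptor, are described here in cultured mouse osteoblasts with and without verapamil, a blocker of L-type calcium channels. They are 7 of the 17491 genes listed in the count table: Pth1r, Vipr1, Vipr2, Calcrl, Ramp1, Ramp2 and Ramp3. The set was picked because Vipr2 was higher with verapamil in this comparison and because of the role of Pth1r in bone. Values of its members between control and verapamil are therefore given as a description, with no p. All 6 libraries were made with an mRNA kit from osteoblasts derived from wildtype mouse mesenchymal stem cells, isolated from the marrow of tibiae and femora. All cultures, controls included, were kept until day 7 in osteogenic medium, which held ascorbic acid, dexamethasone and β-glycerophosphate. The 3 control libraries carry no further treatment in the labels, and the other 3 are labelled as treated with verapamil, with neither a dose nor the time of exposure. Neither age nor sex of the mice is labelled. No label states that replicates are separate cultures or animals. P-values here therefore reflect the spread among these 6 libraries alone, and that spread may be technical.

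These receptors belong to class B of the G protein-coupled receptors, whose ligands are peptide hormones and whose main route is through the stimulatory G protein Gαs to adenylyl cyclase, cyclic AMP (cAMP) and protein kinase A. Pth1r encodes the shared receptor of PTH and PTH-related protein, which is carried by osteoblasts and osteocytes and through which intermittent PTH builds bone. Vipr1 and Vipr2 encode the VIP receptors VPAC1 and VPAC2, which also bind the pituitary peptide PACAP. Calcrl encodes a receptor that reaches the cell surface and gains its ligand preference only together with a receptor activity-modifying protein (RAMP): with RAMP1 it is the CGRP receptor, and with RAMP2 or RAMP3 an adrenomedullin receptor. Bone is innervated by sensory fibres that release CGRP.

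All 12 osteoblast markers checked passed the filter on low counts, and so did all 10 macrophage markers. Osteoblast markers summed to 36610 to 46840 CPM (reads scaled to a common library size) in the controls and 14900 to 17250 in the verapamil libraries. Macrophage markers summed to 6937 to 9274 and 13540 to 15530. Endothelial markers summed to 65.6 to 72.0 and 54.0 to 54.4, and lymphocyte markers to at most 0.316 in any library. Neutrophil markers summed to at most 1.595 CPM. Library totals ran from 18.2 M to 21.7 M estimated reads, and levels are CPM scaled with TMM factors, given per library or as mean ± SD (n = 3 per group). Of 13366 genes that passed a filter on low counts, 4235 differed between the groups at an adjusted p under 0.05 (edgeR's quasi-likelihood test, Benjamini-Hochberg adjustment).

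The promoter windows of Vipr2 and Ramp1, the members with the largest differences in each direction, are shown with those of the most upstream and the most downstream of the 3 Pth1r starts, whose base composition differed within the gene. Windows run from 250 bases before to 50 after a RefSeq start on GRCm38.p6, 5′ to 3′ on the gene's strand. Capitals mark any match to 1 of 6 motifs searched on both strands. These are the cAMP response element TGACGTCA, its short form TGACG, the RUNX site TGTGGT, the GC box GGGCGG, the hypoxia response core ACGTG and the TATA box TATAAA. The short form lies within the full element, so a match to the full element also counts for the short form.
Vipr2 (chr12:116077476-116077775, + strand): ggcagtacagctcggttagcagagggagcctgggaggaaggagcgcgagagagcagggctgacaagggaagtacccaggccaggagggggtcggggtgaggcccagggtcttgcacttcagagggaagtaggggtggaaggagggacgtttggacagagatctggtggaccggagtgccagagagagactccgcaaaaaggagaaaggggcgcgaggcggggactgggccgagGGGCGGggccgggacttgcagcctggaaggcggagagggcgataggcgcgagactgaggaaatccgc
Ramp1 (chr1:91179572-91179871, + strand): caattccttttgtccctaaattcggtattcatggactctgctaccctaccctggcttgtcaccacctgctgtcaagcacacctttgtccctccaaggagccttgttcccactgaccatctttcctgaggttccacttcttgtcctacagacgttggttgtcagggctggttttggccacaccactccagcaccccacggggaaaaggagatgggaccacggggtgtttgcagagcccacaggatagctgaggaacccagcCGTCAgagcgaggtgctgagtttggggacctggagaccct
Pth1r upstream start (chr9:110747096-110747395, - strand): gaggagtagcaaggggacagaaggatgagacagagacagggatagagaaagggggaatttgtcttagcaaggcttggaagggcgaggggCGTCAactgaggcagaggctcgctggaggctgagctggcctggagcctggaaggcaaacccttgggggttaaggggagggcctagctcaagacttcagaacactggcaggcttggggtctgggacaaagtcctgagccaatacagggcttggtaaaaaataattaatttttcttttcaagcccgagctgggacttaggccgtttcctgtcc
Pth1r downstream start (chr9:110742561-110742860, - strand): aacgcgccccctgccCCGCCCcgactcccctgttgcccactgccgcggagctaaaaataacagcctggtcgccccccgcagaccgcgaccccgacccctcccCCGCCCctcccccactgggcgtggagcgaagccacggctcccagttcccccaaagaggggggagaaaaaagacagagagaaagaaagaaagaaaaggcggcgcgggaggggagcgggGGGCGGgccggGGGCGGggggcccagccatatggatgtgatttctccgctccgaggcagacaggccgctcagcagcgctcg
GC content of the Pth1r windows was 54.3% at the upstream start, 68.0% at the middle one and 69.3% at the downstream one, and the ratio of observed to expected CpG was 0.25, 0.693 and 0.751. Over all 32817 RefSeq windows the medians were 52.7% and 0.383. The Vipr2 window had 65.3% GC and a CpG ratio of 0.682, the Ramp1 window 55.7% and 0.26, and the Calcrl window 50.7% and 0.365.

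RefSeq held windows for 6 of the 7 members, 8 windows in all, with no entry for Ramp2. None of the 8 held the full cAMP response element, which 1.79% of all windows and 2.61% of those of genes in the table hold. The short form was found once each in the windows of Vipr1 and Ramp1 and at the upstream start of Pth1r. It stood in 20.8% of all windows and in 26.8% of those of genes in the table. A GC box stood in the windows of Vipr1, Vipr2, Calcrl and Ramp3 and at the middle and downstream starts of Pth1r, with 4 matches each in Vipr1 and the downstream Pth1r start. It stood in 35.6% of all windows and in 54.7% of those of genes in the table. The RUNX site, the hypoxia response core and the TATA box had no match in the 8 windows, against 16.8%, 19.6% and 13.6% of all windows. Among windows of genes in the table these shares were 13.5%, 23.1% and 8.98%. A match is a run of letters and not a measured binding site, and counts per gene do not show which Pth1r start was used.

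Verapamil libraries held more Vipr2 and somewhat more Calcrl RNA than controls, and less Ramp1 and Pth1r RNA. Among the 6 members that passed the filter, the groups did not overlap in 5: Vipr2 and Calcrl lay above the controls, and Pth1r, Ramp1 and Vipr1 below them. Of all tested genes, 49.6% had groups that did not overlap, 25.2% with verapamil above and 24.4% with verapamil below. Past the test were 2 members higher, Vipr2 and Calcrl, and 2 lower, Pth1r and Ramp1, where 31.7% of all tested genes passed, 15.4% higher and 16.3% lower. As the members were picked on this contrast, nothing is read from these counts. The median log2 fold change of the 6 was -0.36, and that of all tested genes 0.01. In bulk RNA, fewer cells of a type and less RNA per cell cannot be told apart.

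**Figure D1:**
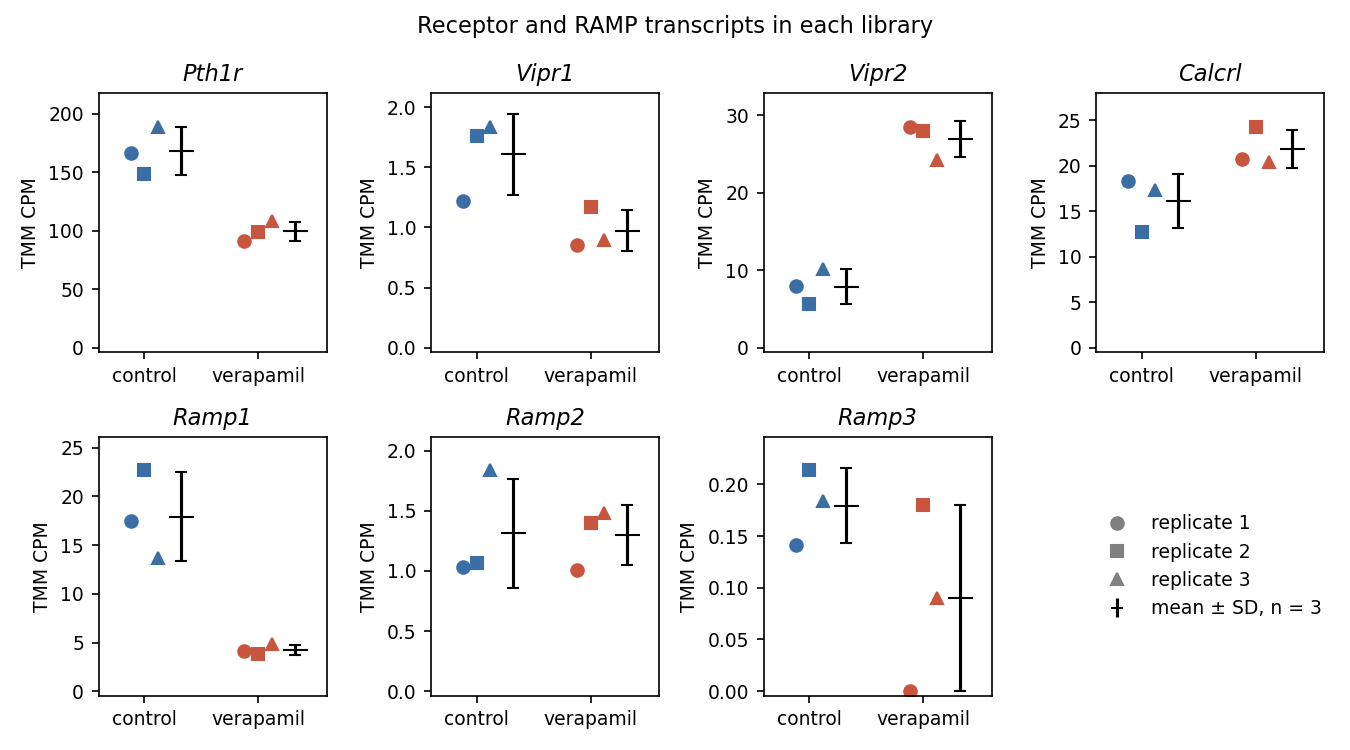
TMM-scaled CPM (vertical axis, a separate scale per gene) of the 7 genes in each of the 3 control and 3 verapamil libraries. Symbols mark the replicate number and black bars the mean ± SD; Vipr2 runs from 5.61 to 10.1 in the controls and from 24.3 to 28.55 with verapamil, and Ramp1 from 13.7 to 22.7 and from 3.83 to 4.85.

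Among the VIP receptors, Vipr2 (Entrez 22355, chromosome 12, 116077420 to 116148637, + strand, in GRCm38) was at 7.94, 5.61 and 10.1 CPM in control replicates 1, 2 and 3 and at 28.55, 28.0 and 24.3 CPM in verapamil replicates 1, 2 and 3. Every verapamil library was above every control, and the gap between the groups was wider than the range within either. The group levels were 7.88 ± 2.25 and 26.9 ± 2.33 CPM, a log2 fold change of 1.76 ± 0.18 SE or 3.39-fold. Only 19 of the 13366 tested genes had a higher log2 fold change, a description of the gene for which the set was picked. The controls were more scattered than the verapamil libraries, with a coefficient of variation (SD over mean) of 28.5% against 8.65%. The wider spread was not special to Vipr2. Chi-square per degree of freedom, a measure of how far paired libraries differ, was 12.6 to 49.9 between controls. Between verapamil libraries it was 3.57 to 6.21. No test used here let the spread differ between groups. For Vipr2, control replicate 2 was the lowest. Without that library the log2 fold change of Vipr2 was 1.57, the lowest of the 6 values with 1 library left out.

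Vipr1 (Entrez 22354, chromosome 9, 121642716 to 121672954, + strand), the other VIP receptor gene, was close to the filter. It was at 1.22, 1.76 and 1.84 CPM in control replicates 1, 2 and 3 and at 0.851, 1.17 and 0.898 CPM in verapamil replicates 1, 2 and 3. Control replicate 1 was nearly as low as verapamil replicate 2, and the groups did not overlap. The log2 fold change was -0.71 ± 0.26 SE and did not pass the test. Over each group the summed reads numbered 99 and 62, with exact Poisson 95% intervals of 1.30 to 1.95 and 0.752 to 1.26 CPM that cover counting error only. Per kilobase of transcript, Vipr2 was 7.33 ± 2.47 times the level of Vipr1 in the controls and 40.8 ± 7.18 times in the verapamil libraries, so Vipr2 was the more abundant VIP receptor transcript in all 6.

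Pth1r (Entrez 19228, chromosome 9, 110722085 to 110747145, - strand), the PTH receptor gene, was at 167, 149 and 189 CPM in control replicates 1, 2 and 3 and at 91.55, 99.2 and 108 CPM in verapamil replicates 1, 2 and 3. All verapamil libraries were below all controls, and control replicate 2 was the control nearest to them. The group levels were 168 ± 20.2 and 99.6 ± 8.27 CPM. The log2 fold change of Pth1r was -0.76 ± 0.10 SE, 1.69-fold lower, and 727 of the 13366 tested genes had a lower one. Of its exon bases, 95 also lie in an exon of Myl3 on the other strand, and without a stated strand setting reads there cannot be told apart.

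For the CGRP receptor, the receptor gene and its RAMP differed in opposite directions. Calcrl (Entrez 54598, chromosome 2, 84330626 to 84425405, - strand) was at 18.3, 12.7 and 17.3 CPM in control replicates 1, 2 and 3 and at 20.7, 24.3 and 20.4 CPM in verapamil replicates 1, 2 and 3. The groups did not overlap, but the step from the highest control to the lowest verapamil library was smaller than the range among the controls. The log2 fold change of Calcrl was 0.44 ± 0.14 SE, and it was 0.29 without control replicate 2. Its place past the test was lost with the replicate number as a block (0.45), without verapamil replicates 1, 2 or 3 (0.47, 0.35 and 0.48) and on leaving out control 1 (0.54). Because the set was picked on this contrast, keeping or losing that place is a description and no evidence for any member.

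Ramp1 (Entrez 51801, chromosome 1, 91179822 to 91225196, + strand), which turns CALCRL into the CGRP receptor, was at 17.4, 22.7 and 13.7 CPM in control replicates 1, 2 and 3. It was at 4.15, 3.83 and 4.85 CPM in verapamil replicates 1, 2 and 3. The lowest control lay far above the highest verapamil library. Means were 17.9 ± 4.53 and 4.28 ± 0.521 CPM, a log2 fold change of -2.06 ± 0.20 SE, 4.17-fold lower. This difference was larger than that of Vipr2 in size, and 64 of the 13366 tested genes had a lower log2 fold change. Control replicate 2, lowest among the controls for Vipr2 and Calcrl, was the highest for Ramp1, so that library lay farthest from the verapamil group in these 3 genes and nearest to it in Pth1r. Without it the log2 fold change of Ramp1 was -1.86.

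The partners that make adrenomedullin receptors had few reads. Ramp2 (Entrez 54409, chromosome 11, 101246334 to 101248250, + strand) was at 1.03, 1.07 and 1.84 CPM in control replicates 1, 2 and 3 and at 1.01, 1.398 and 1.48 CPM in verapamil replicates 1, 2 and 3. The groups overlapped, with a log2 fold change of -0.02 ± 0.29 SE that ran from -0.17 to 0.31 with 1 library left out. In the annotation, 1103 bases of Ramp2 exons are shared with exons of its neighbour Vps25 on the same strand, so how reads there were divided is uncertain. Ramp3 (Entrez 56089, chromosome 11, 6658506 to 6677478, + strand) did not pass the filter, with 17 reads over all libraries. It had 3, 4 and 4 reads in control replicates 1, 2 and 3 and 0, 4 and 2 in verapamil replicates 1, 2 and 3. Summed over each group that was 0.178 CPM (exact Poisson 95% interval 0.0889 to 0.319) and 0.0949 CPM (0.0348 to 0.207). No difference was detectable for Ramp3 at this depth.

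Per kilobase of the longest transcript, which allows levels of different genes to be compared, Pth1r led in both groups at 72.9 ± 8.75 and 43.2 ± 3.59 CPM per kilobase. In the controls Ramp1 followed at 7.715 ± 1.95, then Calcrl at 3.30 ± 0.609, Vipr2 at 2.33 ± 0.665, Ramp2 at 0.888 ± 0.3075, Vipr1 at 0.328 ± 0.0686 and Ramp3 at 0.135 ± 0.0274. Calcrl and Vipr2 were the only neighbours in that order whose control ranges overlapped. In the verapamil libraries the order was Pth1r, then Vipr2 at 7.96 ± 0.688, Calcrl at 4.47 ± 0.437, Ramp1 at 1.84 ± 0.224, Ramp2 at 0.8775 ± 0.1705, Vipr1 at 0.199 ± 0.0355 and Ramp3 at 0.0676 ± 0.0677, with no overlap between neighbours. Ramp1 and Vipr2 thus traded places, from rank 2 to 4 and from 4 to 2. With the median transcript length of each gene, Vipr2 was above Calcrl in the controls too and Vipr1 was above Ramp2 in both groups.

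**Figure D2:**
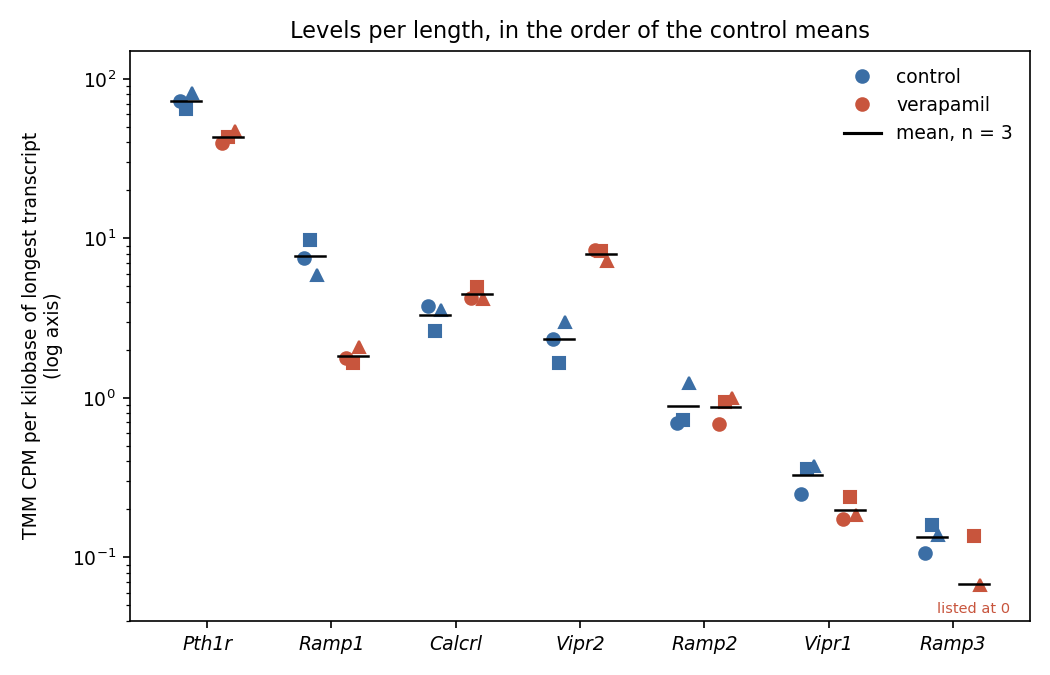
CPM per kilobase of the longest annotated transcript (vertical log axis) for the 7 genes, ordered by control mean, with 1 point per library (circle, square and triangle for replicates 1, 2 and 3) and a bar at the mean of 3. Pth1r stands highest in both groups at means of 72.9 and 43.2, and Ramp1 and Vipr2 cross; verapamil replicate 1 is listed at 0 for Ramp3.

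The make-up of the RAMP transcripts differed accordingly. Ramp1 made up 90.3%, 91.7% and 81.0% of the summed RAMP level per kilobase in control replicates 1, 2 and 3 and 72.3%, 60.4% and 66.1% in verapamil replicates 1, 2 and 3. Every control was above every verapamil library. The share of Ramp2 was 10.8 ± 5.54% and 31.4 ± 3.49%, although the level of Ramp2 itself overlapped between groups. Summed over the 3 genes, RAMP transcripts stood at 8.74 ± 1.73 and 2.785 ± 0.348 CPM per kilobase. Relative to Calcrl, Ramp1 was 2.003, 3.75 and 1.66 times as abundant per kilobase in control replicates 1, 2 and 3 and 0.420, 0.332 and 0.498 times in verapamil replicates 1, 2 and 3. With this length, the level of Ramp1 was therefore above that of Calcrl in every control and below it in every verapamil library. With the median transcript length the mean ratio with verapamil was 0.925, close to equal levels. Whether both transcripts were in the same cells was not tested.

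**Figure D3:**
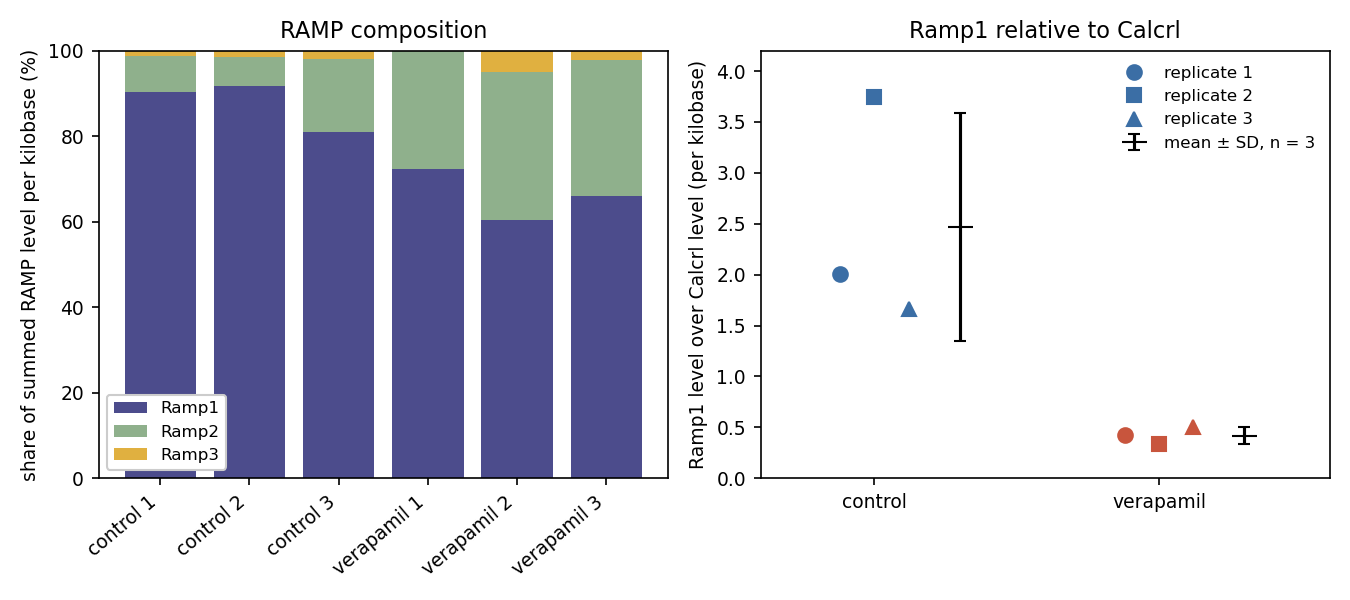
Left, share of Ramp1, Ramp2 and Ramp3 in their summed level per kilobase (percent) in each of the 6 libraries; right, the level of Ramp1 over that of Calcrl per kilobase, points for libraries and bars for mean ± SD. Ramp1 takes 81.0% to 91.7% in the controls and 60.4% to 72.3% with verapamil, and its ratio to Calcrl is 1.66 to 3.75 and 0.332 to 0.498.

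Many markers of both main cell types also differed between the groups. Of 12 osteoblast markers 11 fell and 1 did not pass (median log2 fold change -1.12), and of 10 macrophage markers 6 rose, 1 fell and 3 did not pass (median 0.43). Of 10 endothelial markers, a cell type known for CALCRL and RAMP2, 4 fell and 6 did not pass (median -0.33). Of 8 smooth muscle and pericyte markers, 3 fell and 5 did not pass (median -0.35). Of all tested genes, 15.4% passed higher and 16.3% lower. Mrc1, a mannose receptor of macrophages, was at 1276 ± 70.8 and 1274 ± 12.6 CPM and did not pass. Lyz2, the macrophage marker with the highest level, rose from 5536 ± 1039 to 11200 ± 883 CPM. Cdh5, the cadherin of endothelial junctions, was at 23.0 ± 0.582 and 17.6 ± 1.08 CPM. No marker of these 4 lists was at 0 in all libraries. The part of cell type proportions in the receptor differences was not tested.

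Set against each of the 12 osteoblast markers in turn, Pth1r was higher with verapamil and without overlap for 8, lower for 2 and overlapping for 2, and Ramp1 was lower for 9, higher for 1 and overlapping for 2. Vipr2 and Calcrl were higher for all 12. Each ratio combines the difference of the receptor with that of the marker, and 11 of these markers fell. Higher ratios of genes that rose thus follow from differences already given and are no separate result. Some markers, chosen after their values were seen, are given with their values. Pth1r reads per 100 reads of Alpl, the phosphatase of mineralising osteoblasts, were 26.0, 25.04 and 24.0 in control replicates 1, 2 and 3 and 23.0, 24.2 and 27.4 in verapamil replicates 1, 2 and 3. These ratios overlapped, at 25.01 ± 0.990 and 24.85 ± 2.27. Per 100 reads of Sp7, an osteoblast transcription factor, Pth1r was at 142 ± 16.9 and 178 ± 5.32, and per 100 reads of Runx2, an earlier factor of the lineage, at 160.2 ± 12 and 134.5 ± 8.86, so the sign of its difference turned on the marker. Ramp1 was lower with verapamil against these 3, at 2.76 ± 1.04 and 1.07 ± 0.149 per 100 reads of Alpl, 15.2 ± 3.86 and 7.64 ± 0.591 per 100 of Sp7, and 17.3 ± 5.37 and 5.77 ± 0.546 per 100 of Runx2. Against Col1a1, the main collagen chain of bone, Ramp1 was at 0.105 ± 0.0107 and 0.0793 ± 0.00265 per 100 reads, and Pth1r at 1.04 ± 0.339 and 1.85 ± 0.104. The exception for Ramp1 was Dmp1, a matrix protein gene of osteocytes, which fell by 4.43 on the log2 scale: per 100 of its reads Ramp1 was at 24.7 ± 13.4 and 120.1 ± 23.4. Ramp1 overlapped between groups against Phex, a phosphate-regulating peptidase gene, and Ifitm5, a membrane protein gene of mineralising osteoblasts, which fell by 2.15.

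Vipr2 was also higher with verapamil, without overlap, against all 10 macrophage markers, while Calcrl was higher against 3, lower against 1 and overlapping for 6. Pth1r was lower against 8 of them, higher against 1 and overlapping for 1, and Ramp1 was lower against 9 and overlapping for 1. As 6 of the 10 markers rose, lower ratios of genes that fell against them are likewise no separate result. Per 100 reads of Adgre1, which encodes F4/80, Vipr2 was at 3.185 ± 0.673 in the controls and 7.33 ± 0.277 with verapamil. Per 100 reads of the lysozyme gene Lyz2, Vipr2 was at 0.141 ± 0.0166 and 0.241 ± 0.0134, with no overlap between groups in either. Calcrl per 100 reads of Adgre1 was 7.53, 5.61 and 6.53 in control replicates 1, 2 and 3 and 5.56, 6.20 and 6.06 in verapamil replicates 1, 2 and 3, which overlap. Per 100 reads of Lyz2, Calcrl was lower with verapamil, at 0.291 ± 0.01755 and 0.195 ± 0.00779, and per 100 reads of Csf1r, the receptor of a macrophage growth factor, it overlapped at 5.39 ± 1.24 and 6.06 ± 0.205. Vipr2 per 100 reads of Csf1r was 2.60 ± 0.552 and 7.495 ± 0.467.

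**Figure D4:**
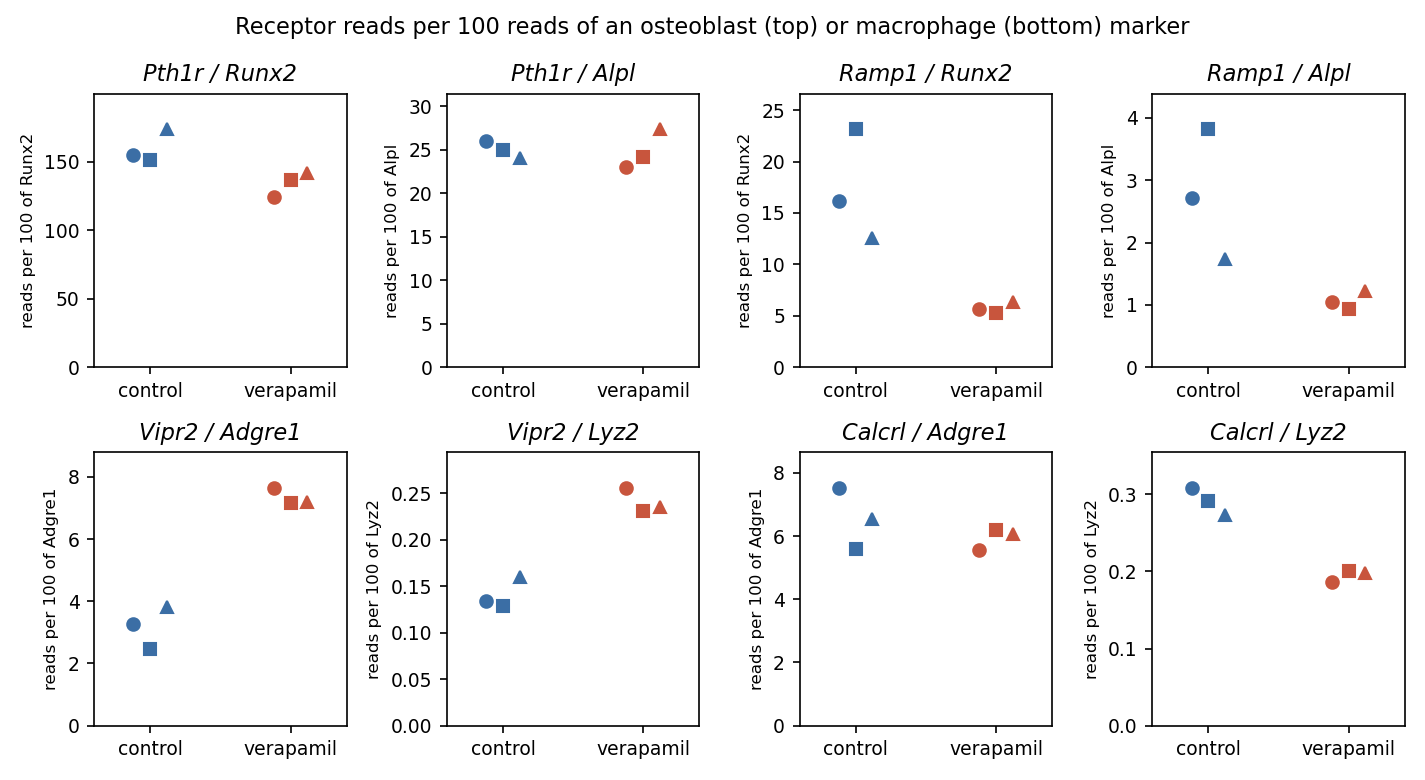
Reads of Pth1r and Ramp1 per 100 reads of the osteoblast markers Runx2 and Alpl (top) and of Vipr2 and Calcrl per 100 reads of the macrophage markers Adgre1 and Lyz2 (bottom), 1 point per library (circle, square and triangle for replicates 1, 2 and 3), vertical axes from 0. Pth1r over Alpl overlaps between groups at means of 25.01 and 24.85, while Vipr2 over Adgre1 separates them at 3.185 and 7.33. The markers shown were chosen after their values were seen. Each ratio also holds the marker's own difference. Against all 12 osteoblast markers, Pth1r was higher with verapamil for 8, lower for 2 and overlapping for 2. Against all 10 macrophage markers, Calcrl was higher for 3, lower for 1 and overlapping for 6.

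Genes with the most similar profile were searched among the 10596 genes that averaged 5 CPM or more, by the root mean square distance between log2 CPM values centred on each gene's mean over the 6 libraries. As both groups separate in these genes, the distance mostly follows the size of the group difference. Nearest to Pth1r were Gpc1 (0.0642), Col11a1 (0.0677), Npnt (0.0731), Sh3pxd2a (0.0782) and Srpx (0.0787), with log2 fold changes from -0.83 to -0.66. Nearest to Vipr2 were Slc40a1 (0.13), Clec7a (0.15), Cd36 (0.177) and Gpnmb (0.213), with log2 fold changes from 1.45 to 1.89. Nearest to Ramp1 were Ptgis (0.0757), Hspb7 (0.111), Sema7a (0.12), Ano1 (0.13) and Fcrls (0.148), and nearest to Calcrl were Gpcpd1 (0.0347), Ccl2 (0.0382), Xylt1 (0.0469), Slfn3 (0.0551) and Car13 (0.0621).

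The signalling chain around the receptors was examined through 10 lists of genes. Counted once each, 92 of their genes were tested, of which 10 rose, 30 fell and 52 did not pass. That is 10.9% higher and 32.6% lower, where 15.4% and 16.3% of all tested genes were. The same shares over all tested genes are the background for the counts of each list below. On leaving out verapamil 1, 5 rose and 19 fell, on leaving out verapamil 2, 6 rose, and on leaving out verapamil 3, 19 fell. In the same libraries the median log2 fold change was -1.12 for osteoblast and 0.43 for macrophage markers. Adjusted p values below are those of edgeR's quasi-likelihood test.

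Most ligand genes had few reads. Of 9 listed, 2 passed the filter. Adm, encoding adrenomedullin, the ligand of CALCRL with RAMP2 or RAMP3, was at 28.5 ± 8.56 and 27.6 ± 2.31 CPM (log2 fold change -0.04 ± 0.20 SE, adjusted p = 0.902). Adm2, encoding a related peptide, was at 2.07, 4.97 and 0.873 CPM in control replicates 1, 2 and 3 and at 0.1595, 0.361 and 0.225 CPM in verapamil replicates 1, 2 and 3. It fell by 3.33 on the log2 scale (SE 0.77, adjusted p = 0.0175), with control replicate 2 highest. Without that library the log2 fold change was -2.52. Adm2 did not pass without verapamil replicate 1, 2 or 3 (adjusted p = 0.0531 to 0.0653). Over all 6 libraries, Pthlh, which encodes PTH-related protein, had 3 reads, and the CGRP genes Calca and Calcb had 4 and 13. Pth, Vip and Adcyap1, which encodes PACAP, are not among the genes listed in the count table, so no level can be given.

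Among other class B receptors and accessory proteins, 4 of 11 listed passed the filter. Of these 1 rose and 2 fell. Adcyap1r1, encoding the PACAP-preferring receptor PAC1, rose from 0.529 ± 0.274 to 1.165 ± 0.128 CPM (1.12 ± 0.35 SE, adjusted p = 0.0403). That call was lost in the DESeq2 test (adjusted p = 0.0710), with the replicate block (adjusted p = 0.0712) and without control replicates 2 or 3 or any 1 verapamil library (adjusted p = 0.0717 to 0.135). Gipr, the receptor gene of the gut hormone GIP, was at 0.939, 1.82 and 0.643 CPM in control replicates 1, 2 and 3 and at 0.213, 0 and 0.0449 CPM in verapamil replicates 1, 2 and 3. It fell (-3.71 ± 0.76 SE, adjusted p = 0.00851), but with so few reads the size is poorly fixed: the log2 fold change was -5.31 on leaving out verapamil 1 and -3.13 on leaving out verapamil 2. Ackr3, encoding a scavenging receptor for adrenomedullin and the chemokine CXCL12, fell from 4.33 ± 2.61 to 0.919 ± 0.0975 CPM (-2.22 ± 0.47 SE, adjusted p = 0.0119). Control replicate 2 was again the highest, at 7.265 CPM, and without it the log2 fold change of Ackr3 was -1.64. Crcp, encoding a coupling protein of the CGRP receptor, was at 19.9 ± 0.112 and 22.2 ± 1.695 CPM and did not pass (adjusted p = 0.143). Calcr, the calcitonin receptor gene, had 5 reads over all libraries.

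Of 11 tested G protein α subunits, 1 fell and 10 did not pass, with a median log2 fold change of 0.00. Gnas, which encodes Gαs, was at 849 ± 91.6 and 797 ± 18.4 CPM (-0.09 ± 0.09 SE, adjusted p = 0.459). Gna11, encoding a subunit that couples to phospholipase C, fell from 106 ± 0.410 to 83.3 ± 1.84 CPM (-0.34 ± 0.05 SE, adjusted p = 0.00173). Without control replicate 2, 2 subunits fell, and without control replicate 3, 2 rose.

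Adenylyl cyclases, the enzymes that make cAMP, numbered 9 tested genes, of which 4 fell, 1 rose and 4 did not pass, with a median of -0.54. Adcy6 was at 113, 121 and 113 CPM in control replicates 1, 2 and 3 and at 78.1, 78.5 and 81.9 CPM in verapamil replicates 1, 2 and 3 (-0.54 ± 0.05 SE, adjusted p = 4.40e-04). Adcy1 fell from 2.71 ± 0.586 to 0.958 ± 0.263 CPM (-1.49 ± 0.26 SE, adjusted p = 0.00431). Adcy5 fell from 7.065 ± 0.461 to 4.27 ± 0.632 CPM (-0.72 ± 0.14 SE, adjusted p = 0.00591). Adcy4 (-0.62 ± 0.20 SE, adjusted p = 0.0470) fell as well. It did not pass with upper quartile or total scaling, by limma-voom, with the block or in 5 of the 6 fits without 1 library, all but that without control replicate 3 (adjusted p = 0.05 to 0.153). The 1 member that rose was Adcy7 (0.35 ± 0.07 SE, adjusted p = 0.00662), a form common in blood cells, named after its value was seen.

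Among 14 phosphodiesterases, which break down cAMP, 4 fell, 1 rose and 9 did not pass, with a median of -0.18. Pde3a fell from 17.05 ± 1.58 to 9.96 ± 0.0466 CPM (-0.77 ± 0.09 SE, adjusted p = 9.04e-04). Pde1b (-0.58, adjusted p = 0.0263) and Pde4a (-0.44, adjusted p = 0.0112) fell and Pde8b rose from 1.53 ± 0.468 to 2.97 ± 0.231 CPM (0.94 ± 0.23 SE, adjusted p = 0.0170). Without verapamil replicate 1 or 2 none of these 3 passed, nor did Pde1b on leaving out control 1 or verapamil 3 (adjusted p = 0.0502 to 0.0912). Leaving out verapamil 1, 2 and 3 in turn gave 2, 1 and 2 that fell. Leaving out control 3 gave 2 that rose, and leaving out verapamil 1 or 2 gave 0.

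Downstream of cAMP, 5 of 11 genes for protein kinase A, its inhibitors and the cAMP-gated exchange factors EPAC fell, 1 rose and 5 did not pass, with a median of 0.03. The regulatory subunit gene Prkar2b was at 114, 110.5 and 108 CPM in control replicates 1, 2 and 3 and at 79.6, 80.5 and 75.1 CPM in verapamil replicates 1, 2 and 3 (-0.50 ± 0.05 SE, adjusted p = 5.81e-04). Rapgef4, one of the EPAC genes, fell from 15.2 ± 1.985 to 10.3 ± 0.4665 CPM (-0.57 ± 0.11 SE, adjusted p = 0.00683). Pkib, an inhibitor of the kinase, rose from 10.6 ± 0.8055 to 15.7 ± 0.918 CPM (0.57 ± 0.09 SE, adjusted p = 0.00313). Prkar1b fell by 0.48 on the log2 scale (adjusted p = 0.0424), but not with total scaling, with the replicate block or without control replicate 1 or any 1 verapamil library (adjusted p = 0.0522 to 0.137). Leaving out control 1 or 3 gave 2 that rose, and total scaling gave 3. The catalytic subunit gene Prkaca, named after its value was seen, was at 86.3 ± 4.44 and 88.2 ± 4.58 CPM (adjusted p = 0.743).

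Of 9 genes for receptor kinases, arrestins and the NHERF scaffolds, which switch off or anchor these receptors, 3 rose, 0 fell and 6 did not pass, with a median of 0.02. Slc9a3r1 encodes NHERF1, the scaffold that binds the tail of the PTH receptor. It was at 60.3, 67.4 and 72.7 CPM in control replicates 1, 2 and 3 and at 107, 110 and 109 CPM in verapamil replicates 1, 2 and 3 (0.70 ± 0.07 SE, adjusted p = 5.17e-04). Slc9a3r1 was thus higher with verapamil and Pth1r lower, with no overlap between groups in either gene. Of all tested genes, 25.2% lay wholly above and 24.4% wholly below the controls with verapamil. A link between these genes was not tested. Arrb2, encoding β-arrestin 2, rose from 56.7 ± 6.01 to 74.8 ± 2.83 CPM (0.40 ± 0.08 SE, adjusted p = 0.00795). Grk2, a receptor kinase gene, rose by 0.28 (adjusted p = 0.0126), but not without control replicate 1 or verapamil replicate 1 or 2 (adjusted p = 0.0551 to 0.0675). Of those that fell there was 1 without control replicate 2 or 3.

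Of 8 CREB family factors and coactivators, which carry the cAMP signal to genes, 1 fell, 0 rose and 7 did not pass, with a median of -0.09. The acetyltransferase gene Crebbp fell from 49.2 ± 0.462 to 40.1 ± 1.11 CPM (-0.30 ± 0.06 SE, adjusted p = 0.00526). On leaving out control 2, 2 of them fell and 1 rose, and with total scaling 1 rose. In the branch of salt-inducible kinases (SIK), class IIa histone deacetylases and MEF2 factors, through which PTH acts in osteocytes, 5 of 10 fell, 1 rose and 4 did not pass, with a median of -0.19. Mef2c was at 68.7, 57.3 and 54.3 CPM in control replicates 1, 2 and 3 and at 35.2, 38.6 and 35.5 CPM in verapamil replicates 1, 2 and 3 (-0.72 ± 0.09 SE, adjusted p = 0.00119). Mef2d (-0.27 ± 0.06 SE, adjusted p = 0.00738) fell too. The fall of Hdac7 (-0.49, adjusted p = 0.0486) and the rise of Sik1 (0.27, adjusted p = 0.0162) were both lost with the replicate block and without verapamil replicate 1, 2 or 3 (adjusted p = 0.0531 to 0.147). Hdac7 did not pass with upper quartile scaling, without the filter or by limma-voom either (adjusted p = 0.0552 to 0.0715). In this branch 3 fell with total scaling, and 2 fell with the block and on leaving out verapamil 1 or 3.

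Of 18 genes known to respond to cAMP or PTH, 8 fell, 3 rose and 7 did not pass, with a median of -0.25. Fosb, a subunit of the transcription factor AP-1, was at 7.80, 10.15 and 6.155 CPM in control replicates 1, 2 and 3 and at 2.18, 2.57 and 2.83 CPM in verapamil replicates 1, 2 and 3 (-1.65 ± 0.21 SE, adjusted p = 9.93e-04). All 3 members of the Nr4a family of nuclear receptors, early targets of PTH in osteoblasts, fell. Nr4a1, named after its value was seen, fell from 59.2 ± 5.24 to 38.1 ± 1.84 CPM (-0.63 ± 0.08 SE, adjusted p = 9.18e-04). Nr4a3 fell by 0.90 (adjusted p = 0.00512). Nr4a2 (-0.81, adjusted p = 0.0184) lost its call on leaving out control 1 or any 1 verapamil library (adjusted p = 0.0546 to 0.0737). Ptgs2, encoding the inducible cyclooxygenase (-1.47, adjusted p = 0.0381), passed with 1 library left out only when that was control replicate 3 (otherwise adjusted p = 0.0873 to 0.142), and did not pass without the filter or by limma-voom (adjusted p = 0.0867 and 0.107). Those that rose were Atf3 (0.48), Fos (0.33) and Sik1 (0.27). Leaving out control 1 gave 5 that fell, and leaving out verapamil 1, 2 and 3 in turn gave 5, 4 and 4. With the block, and on leaving out verapamil 1 or 3, 1 rose. Tnfsf11, the osteoclast factor RANKL, was at 3.825 ± 0.664 and 3.41 ± 0.570 CPM (adjusted p = 0.550) and was named after its value was seen.

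**Figure D5:**
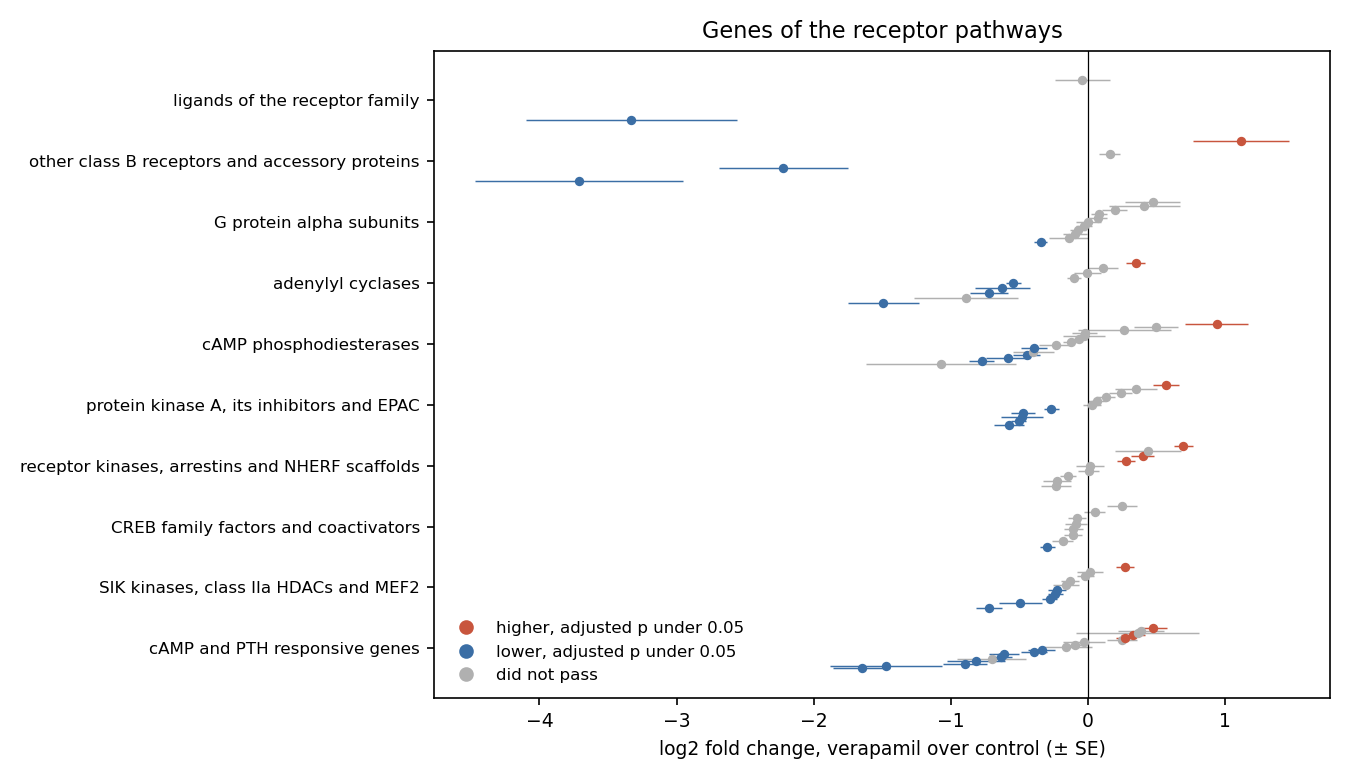
Log2 fold change of verapamil over control with its SE (horizontal axis) for each tested gene of the 10 pathway lists, coloured by whether it passed at an adjusted p under 0.05. Of 92 genes, 30 lie in the lower and 10 in the higher group. The medians of the G protein and CREB lists are close to 0 (0.00 and -0.09), and Adm2, Gipr and Ackr3 lie farthest to the left.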

How the data were processed

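RNA-seq of 3 control and 3 verapamil libraries was analysed from 1 table of estimated counts per gene, deposited by the authors as a read count per the file headers and not scaled to depth or length. Of its values, 67.7% were not whole. The build is GRCm38 (mm10), per the submitters' processing notes. No aligner, counter, annotation or strand setting is given in the sources used here. Estimated counts were rounded, filtered with filterByExpr (minimum count 10, minimum total 15), which left 13366 of 17491 genes, scaled with TMM factors and tested with the quasi-likelihood fit of edgeR 4.0.16 in R 4.3.3 with Benjamini-Hochberg adjustment at 0.05. Standard errors were derived by dividing the size of the log2 fold change by √F. Log2 CPM for profiles used a prior count of 2. Lengths came from GENCODE vM21 transcripts, coordinates and promoters from RefSeq.

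The members, lists, tests and alternatives were chosen with earlier results of these data known. From each pathway list the text names up to 4 genes past the test with the largest change, or the 2 most abundant where none passed, and Gnas, Pthlh, Adm, Calcr and Adcyap1r1. From marker lists it gives counts and a few members. Profile neighbours are the 5 nearest, predicted genes passed over, and 1 of them is not reported here. Mast cell and adipocyte markers were also fixed. Of 1 tested mast cell marker 0 passed, and of 3 adipocyte markers 1 rose, 1 fell and 1 did not pass. The 1 tested neutrophil marker, S100a8, rose, and no lymphocyte marker was tested.

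In a test on simulated data modelled on this comparison (13284 genes, 5 draws), recovery was 70.0% for 1.5-fold and 84.2% for 2-fold changes. False calls were 8.87%, above the 0.05 that was set. Only 100 genes per fold were changed, and both groups were drawn with the same dispersion per gene. In the real data 31.7% of tested genes passed and the controls were more scattered, so these rates need not hold there. Alternatives were other scalings, filters, tools (DESeq2 1.42.0, voom of limma 3.58.1), unrounded counts, omission of each library, a block on replicate number, a threshold of 0.01 and other lengths.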

Additional observations from a re-analysis of the deposited data

How the results depend on the processing

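The log2 fold changes of the 6 tested receptor genes moved by at most the replicate SD under every alternative that tested them, and only that of Ramp2 changed sign. A filter of 5 CPM left Vipr1 and Ramp2 out. No named pathway gene past the test changed sign. With 1 library left out they ran from -0.84 to -0.67 (Pth1r), -0.88 to -0.60 (Vipr1), 1.57 to 1.98 (Vipr2), 0.29 to 0.54 (Calcrl), -2.23 to -1.86 (Ramp1) and -0.17 to 0.31 (Ramp2). The members past the test in the higher direction numbered 1 with the replicate block and at a threshold of 0.01, and 1 to 2 with 1 library left out. Those in the lower direction numbered 2 throughout. The members were picked on this contrast, so nothing is read from these counts. The series' design text speaks of 3 pairs without saying what pairs them, and no label ties a number to a shared source. Same-numbered libraries did not deviate together (correlations of deviations 0.01, -0.17 and -0.13 over 13366 genes), so the main test has no block. If the numbers do mark pairs, the values with the block apply. With the replicate block 2953 genes passed, 1364 of them higher, and Calcrl, Adcyap1r1, Adcy4, Prkar1b, Hdac7 and Sik1 were among those lost. At a threshold of 0.01, 1969 genes passed, 902 higher and 1067 lower, and of the pathway genes 5 rose and 17 fell. With 1 library left out, 2236 to 5042 genes passed, 1010 to 2452 higher and 1222 to 2590 lower, and 5 to 14 pathway genes rose and 19 to 34 fell. Of the calls, 48.5% were higher, and 63.7% were with library totals alone, which moved the median of all genes to 0.09. Of 29 named pathway genes past the test, 17 passed without each library in turn.

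Ratios between genes depend on the length used. With the median transcript length and with the coding length, Ramp1 over Calcrl was 5.49 and 3.68 in the controls and 0.925 and 0.621 with verapamil. Pth1r over Vipr2 was 32.4 and 5.48 with the longest transcript, 9.66 and 1.63 with the median length and 16.3 and 2.76 with the coding length. Vipr2 over Vipr1 was 3.88 and 21.6 with the median length, and 29.6 with verapamil for the coding length. The Ramp1 share with verapamil was 76.8% and 79.5%. With 1 library left out these quantities ran, in controls and with verapamil, from 1.83 to 2.88 and 0.376 to 0.459 (Ramp1 over Calcrl), 85.7% to 91.0% and 63.2% to 69.2% (Ramp1 share), 6.29 to 8.69 and 36.8 to 43.9 (Vipr2 over Vipr1) and 29.1 to 34.9 and 4.95 to 5.87 (Pth1r over Vipr2). Depth limits Vipr1, Ramp2 and Ramp3, whose group sums were 6 to 99 reads.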
